A study of Mus musculus with 35 samples.

Results

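Hepatocyte nuclei of cachectic mice carrying C26 tumors were compared with those of their PBS controls by ATAC-seq, over all 177904 open regions of the deposited table. The comparison uses 8 of the 35 libraries of the series, 4 labelled C26 cachexia and 4 labelled C26 PBS. Both groups were BALB/c mice of the genotype CAG-Sun1/sfGFP, Albumin-Cre, in which Cre under the albumin promoter switches on a green fluorescent protein tag on the nuclear envelope, so that nuclei of hepatocytes can be pulled out of whole liver. C26 is a syngeneic tumor line that induces cachexia, and livers were taken after a body weight loss of over 10%, at zeitgeber time 9 h. Each library carries its own animal number, so n counts animals, and age and sex are not given in the labels. 3 further comparisons of the series are used beside it. The 8025 tumor line also induces cachexia, in C57BL/6N mice of the same genotype (4 cachexia and 3 PBS libraries). NC26 tumor-bearing BALB/c mice of that genotype kept their weight (4 tumor and 4 PBS libraries), and C26 pre-cachexia mice (4 libraries) share the PBS group of the comparison described here.

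ATAC-seq inserts sequencing adapters into DNA that is not covered by nucleosomes, so that promoters, which start transcription, and enhancers, which lie in introns and between genes, appear as peaks. Many promoters in mammals lie in stretches rich in the dinucleotide CpG and are open in most cell types, whereas enhancers and CpG-poor promoters are open in fewer cell types. In liver, inflammation makes hepatocytes produce acute phase proteins, while fasting and weight loss move them between glucose output, fat oxidation and lipid synthesis. Hepatocytes along the blood flow also divide their work, with urea synthesis near the portal vein and drug metabolism and glutamine synthesis near the central vein.

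The promoters of the called regions were of both kinds, and 5 windows were picked to show the contrast that the promoter results below turn on. They come from RefSeq (build GRCm38.p6, 250 bases before to 50 bases after the start site, 5′ to 3′). Capitals mark each CG. The first 3 are CpG-poor promoters with large changes: Hsd3b5 at chr3:98645485-98645784 on the minus strand, Atp6v0a4 at chr6:38124537-38124836 on the minus strand and Prtn3 at chr10:79879417-79879716 on the plus strand. The other two are CpG-rich promoters with high signal and small changes: Acsl1 at chr8:46470787-46471086 on the plus strand and Adgra3 at chr5:50058947-50059246 on the minus strand.
Hsd3b5: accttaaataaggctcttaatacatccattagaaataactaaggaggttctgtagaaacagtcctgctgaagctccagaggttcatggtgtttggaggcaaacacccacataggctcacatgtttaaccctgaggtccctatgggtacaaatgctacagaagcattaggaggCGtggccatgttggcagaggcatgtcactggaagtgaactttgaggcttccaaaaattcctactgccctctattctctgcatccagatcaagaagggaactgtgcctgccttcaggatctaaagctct
Atp6v0a4: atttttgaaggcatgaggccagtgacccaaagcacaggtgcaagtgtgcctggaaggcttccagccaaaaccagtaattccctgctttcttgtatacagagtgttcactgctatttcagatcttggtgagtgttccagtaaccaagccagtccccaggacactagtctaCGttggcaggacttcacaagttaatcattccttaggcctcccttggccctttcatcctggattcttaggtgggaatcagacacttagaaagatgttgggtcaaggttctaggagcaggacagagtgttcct
Prtn3: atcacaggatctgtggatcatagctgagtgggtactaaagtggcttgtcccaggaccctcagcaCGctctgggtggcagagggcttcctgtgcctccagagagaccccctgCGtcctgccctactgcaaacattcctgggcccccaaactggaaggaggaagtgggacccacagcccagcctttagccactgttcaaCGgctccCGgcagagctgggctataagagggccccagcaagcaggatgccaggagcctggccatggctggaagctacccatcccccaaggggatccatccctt
Acsl1: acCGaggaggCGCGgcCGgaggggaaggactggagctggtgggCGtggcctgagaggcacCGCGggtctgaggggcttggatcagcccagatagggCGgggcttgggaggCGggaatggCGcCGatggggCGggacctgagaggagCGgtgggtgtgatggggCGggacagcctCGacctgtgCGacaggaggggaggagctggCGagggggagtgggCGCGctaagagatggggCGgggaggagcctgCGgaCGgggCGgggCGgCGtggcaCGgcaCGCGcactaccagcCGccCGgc
Adgra3: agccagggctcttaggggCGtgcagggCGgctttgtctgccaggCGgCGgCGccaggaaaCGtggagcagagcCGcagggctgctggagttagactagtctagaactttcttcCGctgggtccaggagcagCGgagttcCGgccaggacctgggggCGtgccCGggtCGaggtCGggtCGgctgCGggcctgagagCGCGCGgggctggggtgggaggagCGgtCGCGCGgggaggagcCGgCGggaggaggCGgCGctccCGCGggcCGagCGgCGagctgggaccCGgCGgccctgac
The Hsd3b5 and Atp6v0a4 windows each hold 1 CG and the Prtn3 window 4, against 30 in the Acsl1 and 34 in the Adgra3 window. Not every named promoter follows this contrast. The Acadm promoter also had high signal and a small log2 change of 0.24. Its window has an observed to expected CpG ratio of 0.46, which is CpG-poor by the cut of 0.5 used below.

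Each value is the number of tags in a region of 400 bases after the authors brought every library to a common total of 10 M (mega) tags, and is called scaled tags here. The 8 libraries held 12.6 to 23.4 M tags, of which 38.6 to 51.7% fell in the regions, and depth bounds what a region near 0 can show. Spearman correlations across regions (regions are not independent replicates) were 0.915 to 0.929 within cachexia, 0.902 to 0.933 within PBS and 0.831 to 0.881 between the groups. Alb, Ttr, Apoa1 and 7 other hepatocyte marker genes had 335 regions within 100 kb, whose summed value was 9665 to 11496 scaled tags in PBS and 10801 to 12885 in cachexia libraries. In a whole-nuclei assay, a shift in the number of nuclei that open a region and a shift in how far each opens it cannot be told apart.

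Chromatin changed in both directions and in nearly equal numbers. Of 177251 regions tested with limma-trend on log2(value + 1), 24890 (14.0%) were called at an adjusted p under 0.05, 12255 higher in cachexia (6.91%) and 12635 lower (7.13%). Regions called higher rose by a median log2 change of 1.00, from a median of 14.7 to 33.6 scaled tags, and regions called lower changed by a median of -1.07, from 20.7 to 8.82. By quartile of average signal from the lowest to the highest, 2.90%, 5.08%, 7.90% and 11.8% of regions were called higher and 4.33%, 6.30%, 9.42% and 8.47% lower. Called changes were smaller where signal was higher. Over the same quartiles their median was 1.48, 1.29, 1.05 and 0.60 for rises and -1.45, -1.23, -1.01 and -0.70 for falls. In 6091 of the higher and 7097 of the lower regions the change reached 1 on the log2 scale, and in 807 and 710 it reached 2. The 4 cachexia and 4 PBS libraries did not overlap in 33133 regions (18.7% of those tested). Merged where they lay within 1 kb of each other, the called regions made 9501 loci with higher and 10184 with lower accessibility. Within 100 kb of a start site, 5028 genes had at least 1 region called higher, 4953 at least 1 called lower, and 1473 had both.

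The change was uneven across the genome's annotation. Intergenic regions were called most often of the 5 annotation classes, 4644 of 59811 higher (7.76%) and 5175 lower (8.65%), and their called regions had the largest median changes, 1.13 and -1.17 on the log2 scale. Introns followed with 5144 of 81984 higher (6.27%) and 6125 lower (7.47%). Exons and untranslated regions had 465 of 10009 higher (4.65%) and 530 lower (5.30%), and gene ends 229 of 3724 higher (6.15%) and 259 lower (6.95%). Promoters stood on the other side of this balance, with 1772 of 21686 higher (8.17%) and 546 lower (2.52%). Counted by distance instead, 2132 of 32741 regions within 1 kb of a start site were higher (6.51%) and 1036 lower (3.16%), so the shortage of falls held for both definitions and the excess of rises only for the annotated class. Regions more than 100 kb from a start site leaned the opposite way, with 1269 of 18468 higher (6.87%) and 2228 lower (12.1%), and a median log2 change over all of them of -0.13.

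**Figure D1:**
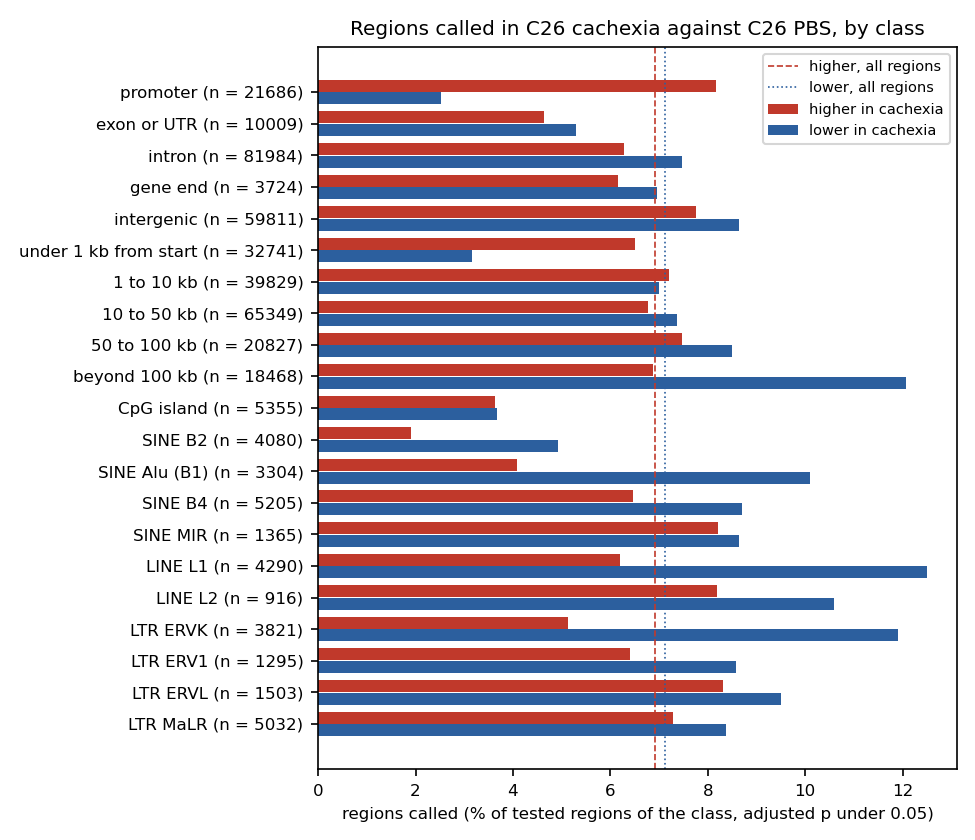
Percent of tested regions called higher and lower in C26 cachexia, by annotation class, distance to the nearest start site, CpG island and repeat class. Dashed and dotted lines mark the shares over all regions. Promoters had 8.17% of regions higher and 2.52% lower, whereas regions beyond 100 kb had 6.87% higher and 12.1% lower.

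Regions in repeats were called lower more often than higher. Over all repeat classes, 3265 of 35214 regions were lower (9.27%) and 2055 higher (5.84%). Each of the 10 SINE, LINE and LTR families counted had more regions lower than higher. The gap was wide in L1 elements, with 12.5% of 4290 regions lower and 6.20% higher, in ERVK retroviruses, with 11.9% of 3821 and 5.13%, and in Alu-type B1 elements, with 10.1% of 3304 and 4.09%. B2 elements had few calls in either direction, 4.93% of 4080 lower and 1.91% higher. These are young mobile elements of the mouse genome with many similar copies. The gap was smaller in B4 (8.70% of 5205 lower and 6.47% higher), L2 (10.6% of 916 and 8.19%), ERV1 (8.57% of 1295 and 6.41%), ERVL (9.51% of 1503 and 8.32%), ERVL-MaLR (8.37% of 5032 and 7.29%) and MIR elements (8.64% of 1365 and 8.21%). CpG islands outside promoters had 195 of 5355 regions higher and 197 lower.

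Some regions were listed as a peak in 1 group only. The deposited table names the libraries in which a peak was called, and 923 tested regions had a peak in all 4 cachexia libraries and in no PBS library, of which 786 were called higher. The reverse listing, all 4 PBS libraries and no cachexia library, held 1317 regions, of which 1031 were called lower. The peak listing and the tags come from the same reads, so the listing describes these regions and adds no independent measurement.

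The share of tags that fell in promoters was larger in cachexia. It was 35.1%, 35.9%, 35.3% and 35.8% in the 4 cachexia libraries and 34.7%, 34.5%, 33.5% and 34.5% in the 4 PBS libraries. No cachexia library overlapped a PBS library, and PBS replicate 3 was the lowest. The means were 35.5% ± 0.390 (SD, n = 4) and 34.3% ± 0.542 (SD, n = 4), a difference of 1.25 percentage points with an exact two-sided permutation p of 0.0286, the smallest that 4 against 4 allows, and an adjusted p of 0.0524 over 11 classes. Introns held 33.3% ± 0.170 of tags in cachexia and 34.2% ± 0.414 in PBS (SD, n = 4 each), SINE repeats 3.99% and 4.25%, LINE repeats 1.59% and 1.68% and LTR repeats 3.74% and 3.94%, each with the same p and adjusted p. Intergenic regions held 24.5% ± 0.203 and 24.7% ± 0.278 (SD, n = 4 each, exact permutation p = 0.314, adjusted 0.384). Without PBS replicate 3 the promoter difference was 0.98 percentage points (exact permutation p = 0.0571).

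**Figure D2:**
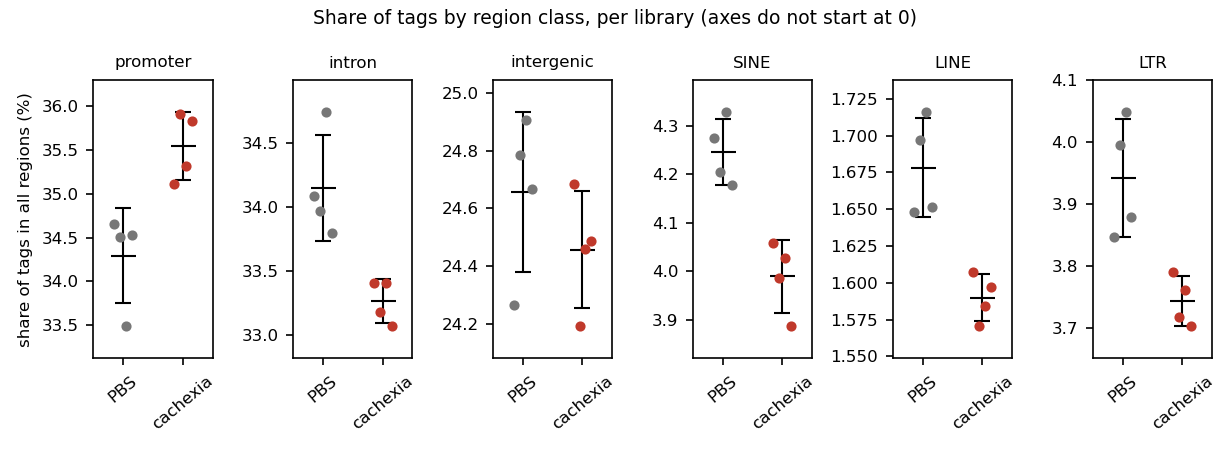
Percent of tags in regions that fell in each region class, 1 point per library, with group means and SD as bars, for 4 cachexia and 4 PBS libraries. Promoter shares were 35.1 to 35.9% in cachexia and 33.5 to 34.7% in PBS.

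Promoter calls were many and small. The median change of promoters called higher was 0.41 on the log2 scale and that of promoters called lower -0.68, and only 241 promoters rose and 106 fell by at least 1. The count of promoters called higher moved with the scaling. It was 835, with 200 lower, where libraries were scaled by their total tags alone, although the median change of all promoters was then 0.12 against 0.07 in the design used here. With each library's promoter share as a covariate 850 promoters were higher and 595 lower, with a median of 0.00037, and with cyclic loess 1218 were higher and 752 lower, with a median of 0.028. Without PBS replicate 3 it was 1129, and without cachexia replicate 3 the count of promoters called lower was 352. The promoter share of tags moved with the groups, and its part in the small promoter changes was not tested.

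Promoters with large rises were more often CpG-poor than promoters with small ones. RefSeq windows overlapped 10949 of the 21686 promoter regions tested by at least 150 of 300 bases (50.5%), so what follows describes these and not the whole promoter class. Among 2003 CpG-poor windows (observed to expected CpG under 0.5), 195 were called higher (9.74%) and 83 lower (4.14%), with median log2 changes of 0.81 and -0.76. Among 8946 CpG-rich windows, 820 were called higher (9.17%) and 123 lower (1.37%), with medians of 0.36 and -0.53. A rise of at least 1 was measured at 68 CpG-poor and 34 CpG-rich promoters, although the CpG-rich windows were more numerous. The calls shared with 8025 cachexia split the same way: 82 of the 195 CpG-poor rises (42.1%) were also called higher there, against 94 of the 820 CpG-rich rises (11.5%). Over all regions, called changes were smaller where signal was higher. The signal of CpG-poor and CpG-rich windows was not compared, and its part in these contrasts was not tested. The CpG-rich counts moved more with the processing. With the promoter share as a covariate 298 CpG-rich windows were higher and 196 lower, with library totals 276 and 21, with cyclic loess 463 and 240, without PBS replicate 3 460 and 97, and without cachexia replicate 3 697 and 62. Over the same settings 140 to 180 CpG-poor windows were higher and 44 to 104 lower.

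Short motifs were counted in these windows on both strands, as letters only. The E-box CACGTG was found in 16.5% of the windows called higher, 10.7% of those called lower and 10.2% of those not called, against 10.8% of all windows matched and 7.15% of all 32851 RefSeq windows. The AP-1 letters TGANTCA were in 7.78% of higher and 8.25% of lower windows and in 4.46% of those not called, against 7.81% of all RefSeq windows. The ETS letters CCGGAAGT were in 8.97% of higher windows, 2.91% of lower windows and 8.12% of windows not called, against 3.89% of all RefSeq windows, and the CREB letters TGACGTCA in 4.93%, 2.43%, 3.26% and 1.79%. CACGTG, CCGGAAGT and TGACGTCA each contain CG, TGACGTCA shares its first letters with another searched motif, TGACNNNGC, and the median CpG ratio was 0.81 in higher, 0.64 in lower and 0.77 in uncalled windows. A match is a run of letters and no evidence of binding.

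Among the promoters with the largest changes, Prtn3, Pde6h and Atp6v0a4 rose and Hsd3b5, Nat8f5 and Slco1a1 fell. Regions named by annotation class, here and below, were chosen only among regions whose groups did not overlap. Lack of overlap is therefore part of their choice and not a further result. Other named regions were chosen by their calls or p-values in this same comparison, so it adds no support there either. Prtn3 encodes proteinase 3, a serine protease stored in neutrophil granules. Its promoter region at chr10:79879530-79879930 measured 41.9, 37.2, 37.1 and 32.6 scaled tags in cachexia and 5.44, 2.91, 3.79 and 5.26 in PBS. Every cachexia library lay above every PBS library, and the log2 change was 2.86 ± 0.38 (SE, adjusted p = 1.3e-06). All 4 regions assigned to Prtn3 were called higher. The same promoter changed by 2.30 in 8025 cachexia (adjusted p = 0.00016) and by 1.14 with NC26 tumors (adjusted p = 0.25). Elane and Mpo, other neutrophil granule genes of which Elane neighbours Prtn3, each had 2 regions called higher, whereas 1 region of S100a8 was called lower (-1.23, adjusted p = 0.041) and no region of S100a9, Ly6g, Cxcr2 or Mmp8 was called.

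Atp6v0a4 encodes a subunit of the proton pump that acidifies vesicles. Its promoter at chr6:38124541-38124941 measured 64.0, 80.5, 53.8 and 86.7 scaled tags in cachexia and 19.4, 10.5, 10.1 and 7.89 in PBS, with no overlap. The log2 change was 2.53 ± 0.27 (SE, adjusted p = 2.8e-09), 7 of its 12 regions were called higher, and the change was 2.01 in 8025 cachexia and 0.41 with NC26 tumors (adjusted p = 0.62). Pde6h, a phosphodiesterase subunit of cone photoreceptors, rose by 2.56 ± 0.49 at its promoter (SE, adjusted p = 0.0005), and 5 of its 15 regions were called higher. Its change in 8025 cachexia was 1.30 (adjusted p = 0.11).

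Hsd3b5 encodes a steroid-metabolising enzyme of the liver. Its promoter at chr3:98645413-98645813 measured 1.06, 8.49, 2.78 and 2.93 scaled tags in cachexia and 26.2, 39.6, 36.6 and 45.6 in PBS, again with no overlap. The log2 change was -3.18 ± 0.43 (SE, adjusted p = 5.5e-06), and it was -3.56 in 8025 cachexia and -0.10 with NC26 tumors (adjusted p = 0.96). Slco1a1, an organic anion transporter of the hepatocyte membrane, fell at its promoter from 30.6, 32, 23.7 and 25.8 scaled tags in PBS to 3.18, 2.43, 3.47 and 4.39 in cachexia (log2 change -2.74 ± 0.29, SE, adjusted p = 5.1e-09), and 14 of its 24 regions were called lower. Nat8f5, of a family of N-acetyltransferases, fell by 2.92 ± 0.31 on the log2 scale (SE, adjusted p = 3.9e-09). Hsd3b5 and Nat8f5 belong to gene families with close copies, and how uniquely reads could be placed there was not tested.

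The called regions with the highest signal within 1 kb of a start site, counted here as promoters by distance, had small changes. Acsl1, which activates long-chain fatty acids, and Acadm, which oxidises medium-chain ones, were called higher with Larp1b, Dnpep, Brpf1 and Tpmt, by 0.19 to 0.24 on the log2 scale. The Acsl1 promoter measured 652, 669, 616 and 691 scaled tags in cachexia and 582, 588, 509 and 548 in PBS, so that even this small change left the groups apart (0.24 ± 0.07, SE, adjusted p = 0.018). In 8025 cachexia these 6 promoters changed by -0.07 to 0.07, with 0 of 6 called, and with the promoter share as a covariate 0 of 6 were called in C26 cachexia. Their counterparts called lower were Pisd-ps3, Id2, Jade1, Adgra3, Idh1 and Klf3, where the Jade1 region is annotated as 5′ untranslated and the Idh1 region as intronic, with changes of -0.51 to -0.20, of which 5 were also called lower in 8025 cachexia. The Adgra3 promoter measured 190, 216, 184 and 231 scaled tags in cachexia and 253, 261, 280 and 275 in PBS, without overlap (-0.38 ± 0.09, SE, adjusted p = 0.0031). Scaled by library totals alone, none of these 12 promoters was called, although the change was not smaller there in those called higher (Acsl1 0.29, adjusted p = 0.082).

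**Figure D3:**
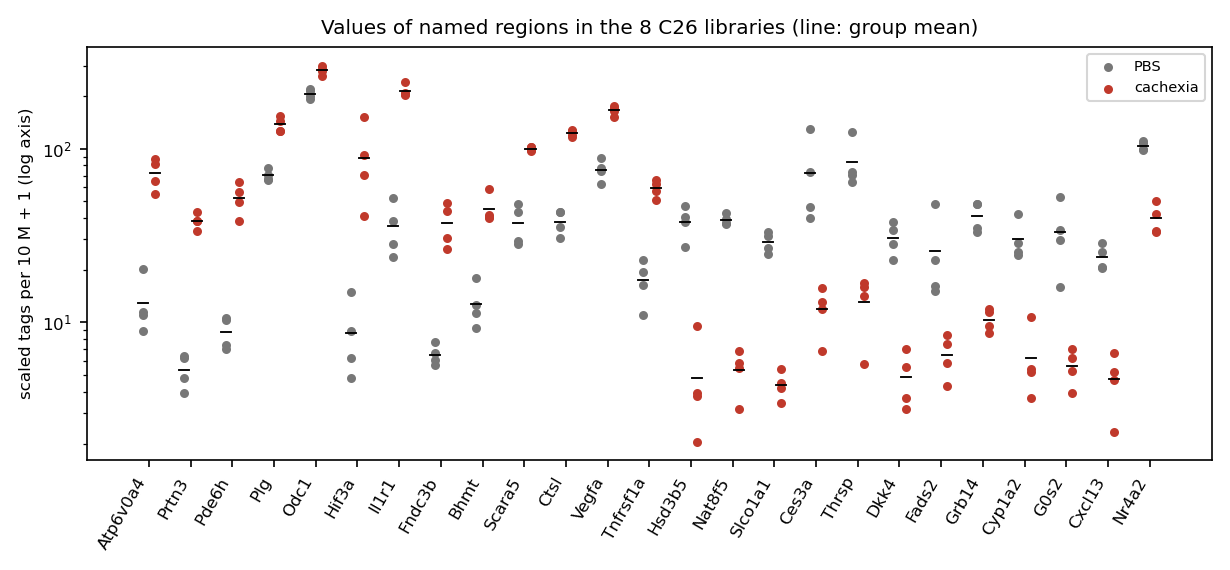
Scaled tags plus 1 per library (log axis) at 25 named regions, 4 cachexia and 4 PBS points per region, with group means as lines. Before the 1 is added, Prtn3 lies at 32.6 to 41.9 in cachexia and 2.91 to 5.44 in PBS, and Hsd3b5 at 1.06 to 8.49 and 26.2 to 45.6.

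Within exons and untranslated regions, Shisa5, Irak1bp1 and Nxph4 had the largest rises and Ugt2b36, Ces3a and Cspg5 the largest falls. The Shisa5 region (chr9:109027578-109027978) is annotated as exonic and lies 10.8 kb upstream of the start of Shisa5, which encodes a membrane protein of the endoplasmic reticulum. It measured 113, 77.7, 74.6 and 62.6 scaled tags in cachexia and 8.55, 6.41, 7.57 and 3.50 in PBS, with no overlap (log2 change 3.48 ± 0.43, SE, adjusted p = 1.1e-06). This region also rose with NC26 tumors, by 2.26 (adjusted p = 0.016), and by 4.33 in 8025 cachexia. Irak1bp1, which binds a kinase of the interleukin-1 receptor, rose by 3.16, and Nxph4, a secreted neurexophilin, rose by 2.95 at a region 36.9 kb upstream of its start. Ugt2b36, which conjugates compounds to glucuronic acid, fell by 2.85 on the log2 scale, the carboxylesterase Ces3a fell by 2.50 and the proteoglycan gene Cspg5 fell by 2.49. Ces3a measured 38.9, 45.2, 128 and 72.7 scaled tags in PBS and 14.9, 10.9, 12.1 and 5.85 in cachexia, without overlap, and 14 of its 18 regions were called lower.

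Introns held rises at Hif3a, Anks1b and Ndst1 and falls at Naaladl2 and Ank1. Hif3a encodes a member of the hypoxia-inducible factor family. Its intronic region at chr7:17058132-17058532, assigned to a start site 1.65 kb downstream, measured 39.8, 91.0, 69.1 and 150 scaled tags in cachexia and 14.0, 5.24, 3.79 and 7.89 in PBS. The groups did not overlap, although the cachexia values themselves were far apart (log2 change 3.32 ± 0.58, SE, adjusted p = 0.00021). 4 of the 6 Hif3a regions were called higher. Ndst1, an enzyme that sulfates heparan, rose by 3.05, and the membrane anchor Ank1 fell by 2.99.

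At gene ends, Gadd45g, Tppp3 and Sftpa1 rose and Thrsp, Dkk4 and Mup7 fell. Gadd45g, a stress-induced growth arrest gene, measured 52.5, 46.5, 53.4 and 53.1 scaled tags in cachexia and 7.51, 3.79, 3.16 and 33.7 in PBS. PBS replicate 4 stood far above the other PBS libraries but below all cachexia libraries (log2 change 2.58 ± 0.68, SE, adjusted p = 0.011), and 17 of the 42 Gadd45g regions were called higher. Thrsp, a regulator of fatty acid synthesis, measured 13.3, 15.8, 14.9 and 4.76 in cachexia and 69.7, 72.8, 63.1 and 124 in PBS, without overlap (log2 change -2.73 ± 0.64, SE, adjusted p = 0.0045). 8 of its 14 regions were called lower. All 5 regions of Dkk4, a secreted Wnt inhibitor, were called lower, the gene end by 2.71. Mup7, a major urinary protein gene in a cluster of near-identical copies, fell by 2.34 on the log2 scale.

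Between genes, and leaving out the acute phase list and other loci set aside by the naming rule, Slc16a7, Akr1d1 and Garem1 were nearest to large rises, and Slc23a3, Tmem232 and Pnpt1 to large falls. Regions near Kank1 (3.62), Olfr173 (-3.94) and Eid2 (-3.87), among those set aside, changed more. Slc16a7 encodes a carrier of pyruvate, lactate and ketone bodies. A region 144 kb from its start, at chr10:125164652-125165052 in an L1 repeat, measured 128, 111, 147 and 134 scaled tags in cachexia and 8.29, 12.2, 15.8 and 9.64 in PBS, with no overlap (log2 change 3.42 ± 0.36, SE, adjusted p = 1.7e-07). Akr1d1, a reductase of bile acid synthesis, had a region 87.7 kb from its start that rose by 3.34. The Slc23a3 region in an Alu-type element measured 5.84, 4.04, 2.08 and 3.66 in cachexia and 50.8, 32.3, 43.9 and 40.7 in PBS, also without overlap (log2 change -3.17 ± 0.27, SE, adjusted p = 7.5e-12). Gene names here are those of the nearest start site in the deposited table, which need not be the gene that a region regulates.

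Called regions were most numerous around a few genes. Of all regions, 37.2% overlap a neighbouring region, so counts of regions per gene, here and elsewhere, can count the same reads more than once. B3galt1, a galactosyltransferase gene, had 38 of its 44 regions within 100 kb called higher. Its leading region, which overlaps a neighbour, was near 0 in PBS (mean 1.09 scaled tags, against 15.3 in cachexia). It was not called in 8025 cachexia (1.29, adjusted p = 0.062). Il1r1, the signalling receptor for interleukin-1, had 30 of 65 higher and 1 lower. Its leading region, 49.8 kb upstream at chr1:40175111-40175511, measured 208, 201, 204 and 242 scaled tags in cachexia and 37.6, 27.4, 22.7 and 51.3 in PBS, with no overlap (log2 change 2.65 ± 0.29, SE, adjusted p = 4e-07). Fndc3b, a membrane protein gene, had 28 of 44 regions higher. Bhmt, which remethylates homocysteine from betaine, had 26 of 34, and Scara5, a ferritin receptor, had 22 of 28.

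Other genes had the most regions called lower. Ttc39c had 23 of 46 regions called lower and 1 higher. Gsta3, a glutathione transferase of a family with close copies, had 22 of 35 lower and 1 higher. Its leading region measured 54.4, 43.4, 59.6 and 55.6 scaled tags in PBS and 15.1, 28.7, 11.8 and 24.1 in cachexia (log2 change -1.44 ± 0.24, SE, adjusted p = 2.4e-05). The groups did not overlap. Fads2, which desaturates polyunsaturated fatty acids, had 17 of 30 lower and 1 higher. The carboxylesterase Ces1d had 16 of 22 lower, and Fez2 had 16 of 31 lower.

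Gene lists were read against all 158716 tested regions within 100 kb of a start site. Of these, 6.92% were called higher and 6.56% lower, with a median log2 change of -0.0050. The lists and counts are descriptions without a test. Secreted proteins come first. The genes of coagulation and fibrinolysis had 52 of 293 regions higher and 20 lower (17.7% and 6.83%, median 0.11), with 13 of 36 regions higher at Plg, which encodes plasminogen, 9 of 14 at Pros1 and 7 of 22 at Cpb2. The Plg promoter measured 154, 125, 142 and 126 scaled tags in cachexia and 65.0, 76.0, 69.7 and 65.7 in PBS, without overlap, a log2 change of 0.97 ± 0.15 (SE, adjusted p = 5.9e-06), and the change was 0.97 in 8025 cachexia also. Proc, the gene of the anticoagulant protein C, fell by 1.35 on the log2 scale at its leading region. Apolipoprotein and lipoprotein export genes had 32 of 302 regions higher and 15 lower (median 0.02). Lipc, the hepatic lipase, had 5 of 46 regions higher, led by an intronic one at 1.76, and 4 lower. Apob, the structural protein of exported lipoproteins, had 4 of 60 regions lower, led by one 61.0 kb from its start at -1.21, while its promoter rose by 0.37 (adjusted p = 0.0033).

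Hepatokines, the hormones released by liver, had 24 of 321 regions higher and 26 lower (7.48% and 8.10%, median 0.04), both near the shares of all regions. Hgfac, an activator of hepatocyte growth factor, fell by 1.90 and Tsku by 1.19 on the log2 scale at their leading regions. Genes of glycosylation and the secretory pathway had 56 of 536 higher and 43 lower (median 0.01). St3gal1, which adds sialic acid to glycans, had 14 of 36 regions higher and 1 lower. Its leading region measured 49.9, 51.8, 53.1 and 71.3 scaled tags in cachexia and 12.2, 16, 7.89 and 24.5 in PBS. The groups did not overlap there (log2 change 1.92 ± 0.25, SE, adjusted p = 4.8e-07), while in 8025 cachexia the change was 0.61 (adjusted p = 0.15).

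Chemokine and cytokine genes, the ligands, had 44 of 314 regions higher and 21 lower (14.0% and 6.69%, median 0.05). Regions called higher were found at Cxcl1, a neutrophil attractant (9 of 21), Tnfsf14 (8 of 11) and Csf1, the macrophage growth factor (7 of 20, with 1 lower). Vegfa, the endothelial growth factor, with 5 of 40 regions higher and 2 lower, rose at a region 20.8 kb from its start from 76.7, 86.8, 61.2 and 73.2 scaled tags in PBS to 176, 150, 164 and 171 in cachexia, without overlap (log2 change 1.15 ± 0.11, SE, adjusted p = 2.8e-10). Cxcl13, a B cell attractant, went the other way, with 5 of 9 regions lower and a log2 change of -2.43 at its leading region. Cytokine and growth factor receptors had 107 of 878 higher and 55 lower (12.2% and 6.26%, median 0.11). Beside Il1r1, regions were called higher at the prolactin receptor gene Prlr (14 of 41, with 1 lower) and at Tnfrsf1a, the receptor of tumor necrosis factor (10 of 16). Ghr, the growth hormone receptor gene, had 16 of 55 regions lower. The leading Tnfrsf1a region measured 65.0, 61.5, 56.2 and 49.8 scaled tags in cachexia and 18.4, 15.4, 10.1 and 21.9 in PBS, without overlap (log2 change 1.80 ± 0.21, SE, adjusted p = 3.3e-08). It also rose with NC26 tumors, by 1.29 (adjusted p = 0.0012).

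Inside the cell, genes of MAPK feedback and growth arrest had 71 of 587 regions higher and 37 lower (12.1% and 6.30%, median 0.07). Btg2, an antiproliferative gene, had 5 of 11 regions higher, led by a change of 2.14, and Spred2, an inhibitor of Ras signalling, had 1 of 44 higher, with a change of 1.19, and 1 lower. Dusp6, an ERK phosphatase, had 10 of 43 regions lower and 1 higher. Insulin signalling and FOXO genes had 78 of 725 higher and 45 lower (10.8% and 6.21%, median 0.06). Ptpn1, a phosphatase that dampens the insulin receptor, had 20 of 53 higher and the pseudokinase gene Trib1 14 of 41, with 1 lower at Trib1. Grb14, an adaptor that inhibits the insulin receptor, had 8 of 35 lower and 2 higher, and its leading region measured 7.70, 8.49, 10.4 and 11 scaled tags in cachexia against 32.1, 33.8, 46.7 and 46.9 in PBS. The groups did not overlap (log2 change -1.97 ± 0.24, SE, adjusted p = 9.4e-08). Genes of TGF-beta, activin and BMP signalling had 22 of 406 higher and 35 lower (5.42% and 8.62%, median -0.05). Smad7, an inhibitor of the pathway, had 8 of 27 regions lower and Smad3, a transducer, 6 of 33. Id1 and Id2, targets of BMP signals, each had 5 regions lower, with 1 higher at Id1. Id3 had 2 of 14 higher, led by a change of 1.42, and 2 lower. Bmp6, a ligand that drives hepcidin, had 4 of 15 regions higher, led by a change of 1.49, and 1 lower.

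Nuclear receptors had 36 of 715 regions higher and 60 lower (5.03% and 8.39%, median -0.05). Ppara, the fatty acid sensor of the fasting liver, had 7 of 29 regions lower and 2 higher, and its promoter rose by 0.20 (adjusted p = 0.027). Nr4a2 had 6 of 10 lower, with 32.6, 41.3, 31.9 and 49 scaled tags in cachexia and 97.9, 106, 110 and 97.3 in PBS at its leading region. The groups were far apart (log2 change -1.41 ± 0.14, SE, adjusted p = 1.1e-09). Nr1h4, the bile acid receptor FXR, rose by 0.99 at a region 19.6 kb upstream, and its change in 8025 cachexia was 0.26 (adjusted p = 0.33).

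Counts for genes of the liver zones leaned in opposite directions. Pericentral genes had 21 of 347 regions higher and 32 lower (6.05% and 9.22%, median -0.0049). Their median was close to that of all regions within 100 kb, at -0.0050, so the lean lay in the called regions only. Periportal genes had 43 of 467 higher and 14 lower (9.21% and 2.998%, median 0.13). Cyp1a2, a drug-metabolising cytochrome, had 4 of 9 regions lower and 1 higher. Its leading region measured 2.65, 9.71, 4.16 and 4.39 scaled tags in cachexia and 23.6, 41.1, 27.5 and 24.5 in PBS, without overlap (log2 change -2.36 ± 0.33, SE, adjusted p = 2.1e-06). Glul, glutamine synthetase, had 4 regions lower, while the glutamate transporter gene Slc1a2 had 6 of 13 higher. On the periportal side, Agxt, which detoxifies glyoxylate, measured 210, 208, 207 and 226 in cachexia and 135, 144, 152 and 134 in PBS, without overlap (log2 change 0.59 ± 0.10, SE, adjusted p = 3.3e-05). Cyp2f2, a cytochrome of the periportal zone, had 1 of 22 regions higher, an intronic one with a change of 1.01, and 2 lower, and its promoter changed by -0.61 (adjusted p = 0.089). No difference between the zones was tested.

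**Figure D4:**
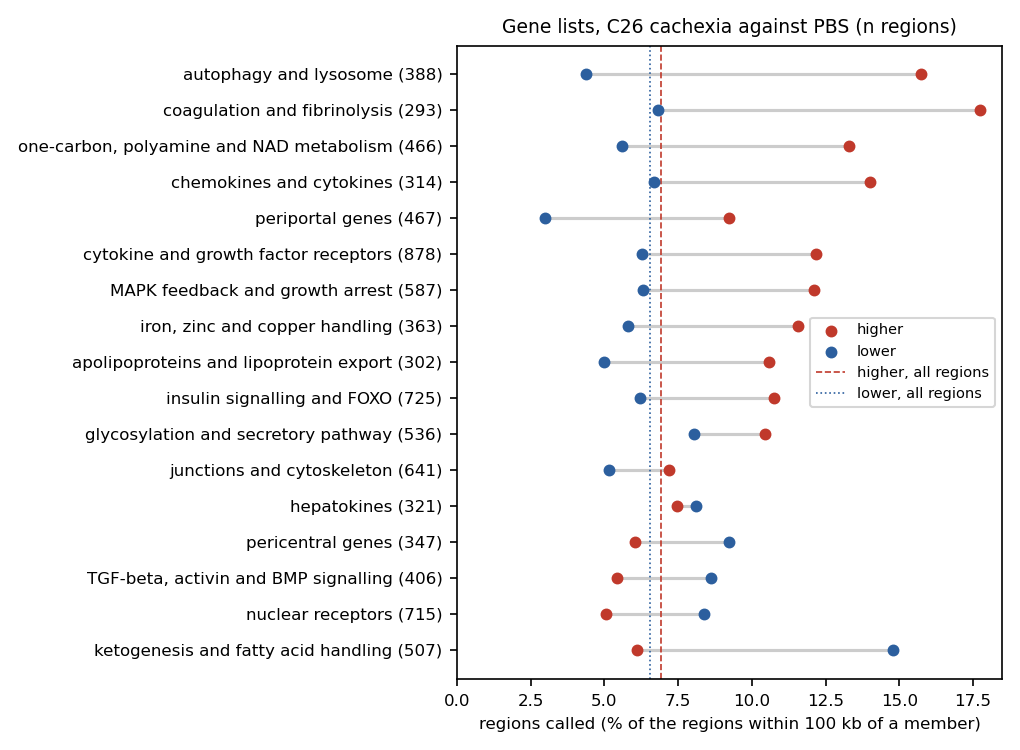
Percent of regions within 100 kb called higher (red points) and lower (blue points) for each gene list, with the shares over all regions as vertical lines. Ketogenesis and fatty acid handling had 14.8% lower, and coagulation 17.7% higher, against 6.56% and 6.92% of all regions.

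Metabolic genes split by pathway. Ketogenesis and fatty acid handling had 31 of 507 regions higher and 75 lower (6.11% and 14.8%, median -0.05), with most of the falls at Ces1d (16 of 22), Ces3a (14 of 18) and Fabp1, the liver fatty acid binding protein (12 of 23). G0s2, an inhibitor of the triglyceride lipase ATGL, measured 4.25, 6.07, 5.21 and 2.93 scaled tags in cachexia and 32.9, 28.8, 51.8 and 14.9 in PBS, without overlap (log2 change -2.47 ± 0.33, SE, adjusted p = 7.5e-07). Hilpda, which also inhibits that lipase, fell by 1.94 on the log2 scale. One-carbon, polyamine and NAD metabolism had 62 of 466 higher and 26 lower (13.3% and 5.58%, median 0.10), of which 26 of the higher regions were those of Bhmt. The promoter of Odc1, the first enzyme of polyamine synthesis, rose by 0.44 ± 0.08 (SE, adjusted p = 8.4e-05), and Aox1, an aldehyde oxidase, fell by 1.91 on the log2 scale.

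Iron, zinc and copper handling had 42 of 363 regions higher and 21 lower (11.6% and 5.79%, median 0.04). Slc39a14, a zinc and iron importer, had 12 of 27 higher. Its leading region measured 73.5, 68.8, 79.1 and 72.4 scaled tags in cachexia and 28, 23.9, 30.0 and 29.8 in PBS, without overlap (log2 change 1.37 ± 0.18, SE, adjusted p = 3.9e-07). Ireb2, an iron-responsive RNA-binding protein, had 6 of 16 higher, and its leading region changed by 0.73 in C26 and by 0.06 in 8025 cachexia (adjusted p = 0.83). Autophagy and lysosome genes had 61 of 388 higher and 17 lower (15.7% and 4.38%, median 0.14). Ctsl, the lysosomal protease cathepsin L, had 18 of 23 regions higher, with 119, 115, 127 and 126 scaled tags in cachexia and 29.8, 42, 42.3 and 34.2 in PBS at a region 27.7 kb upstream. The groups did not overlap (log2 change 1.70 ± 0.15, SE, adjusted p = 3.4e-11), and the region also rose with NC26 tumors, by 0.82 (adjusted p = 0.0056). Fbxo31, a ubiquitin ligase subunit, had 8 of 9 higher, Bnip3, a mitophagy receptor, had 5 higher, and Ulk2, an autophagy kinase, had 5 lower. Junction and cytoskeleton genes had 46 of 641 higher and 33 lower (7.18% and 5.15%, median 0.01), with Cldn14, a tight junction claudin, higher by 2.54 and Vcl, the focal adhesion protein vinculin, lower by a log2 change of -2.02. Acute phase genes, a list with much larger counts, had 274 of 713 higher and 9 lower. The 17 lists other than acute phase kept the direction of their larger count when the distance limit was 10 kb.

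The second cachexia model gave a comparison with no shared library. In 8025 cachexia 12.4% of all tested regions were called, 6.99% higher and 5.38% lower. Of the regions called higher in C26 cachexia, 5617 of 12255 were also higher in 8025 cachexia, which is 45.8% of the C26 and 45.3% of the 8025 calls. Of those called lower, 4695 of 12635 were shared, 37.2% of the C26 and 49.2% of the 8025 calls. Only 5 and 20 regions were called in the opposite direction. The shared fraction depended on the class. It was 53.4% for intergenic, 48.2% for intronic, 48.9% for gene end and 40.6% for exonic rises but 20.03% for promoter rises (355 of 1772), whereas 44.1% of promoter falls (241 of 546) were shared. Called changes also differed in size between the classes, and the part of size and signal in these fractions was not tested. Mouse strain and library series differ between the models as well as the tumor, and these cannot be told apart.

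**Figure D5:**
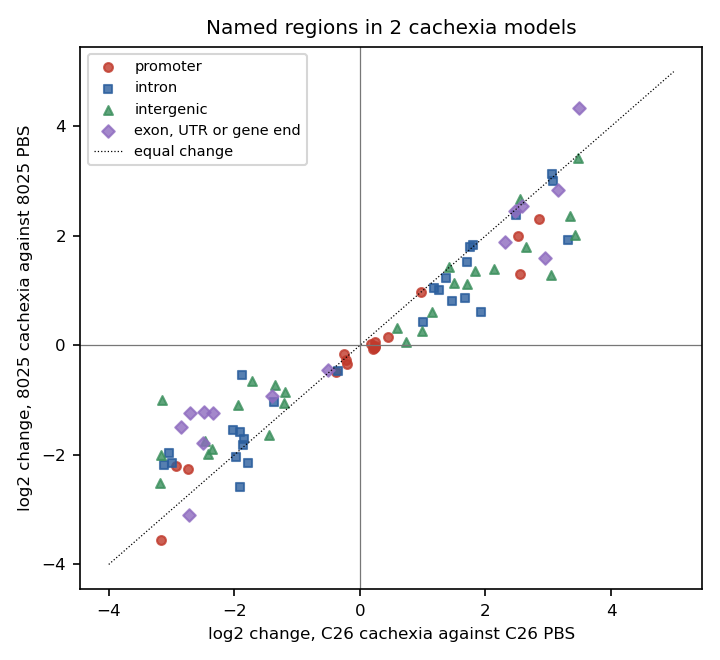
Log2 change in C26 cachexia (horizontal) against the log2 change in 8025 cachexia (vertical) at the 86 regions named by rule, with marker shapes for the annotation class and a dotted line where both changes are equal. 82 of 86 regions lie on the same side of 0 in both models, near the shares over all regions called higher (92.5%) and lower (91.8%) in C26. The highest promoters called higher in C26 lie near 0 in 8025.

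Of the 86 regions named by rule, 46 higher and 40 lower, 69 were called in the same direction in 8025 cachexia and 0 in the opposite one, and 82 had the same sign. Over all regions called in C26 cachexia, 92.5% of the higher and 91.8% of the lower had the same sign in 8025 cachexia. The same-sign count of the named regions is near these shares and is no trait of theirs. The median size of the named regions was 1.91 in C26. Their median change in the C26 direction was 1.41 in 8025 cachexia and 0.29 with NC26 tumors. St3gal1, Man1a, Nr1h4, Ireb2 and Pnpt1 are examples of regions that were not called in 8025 cachexia. The difference between the C26 and 8025 changes was not tested.

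With NC26 tumors, which left body weight stable, 0.186% of tested regions were called. 229 of the 12255 regions higher in C26 cachexia were also called higher there, and 20 of the 12635 lower ones were called lower. Counted from the NC26 side, the 229 were 88.4% of its 259 rises and the 20 were 28.2% of its 71 falls. Called or not, 72.7% of the C26 rises and 74.0% of the C26 falls had the same sign with NC26 tumors. The difference between the C26 and NC26 changes was tested directly, and 2.14% of all regions passed, including 1694 of the higher (13.8%) and 1884 of the lower regions (14.9%). Called and named regions were chosen by their C26 change, which is part of this difference. Their shares are therefore expected to exceed that of all regions and are no independent support. The difference was called in 52 of the 86 named regions. Examples are Slco1a1, with a change of -2.74 against -0.26 (difference -2.48, adjusted p = 0.00048), and Atp6v0a4, with 2.53 against 0.41 (difference 2.12, adjusted p = 0.00095). At Tnfrsf1a the difference was 0.51 (adjusted p = 0.44), and at Prtn3 it was 1.72 (adjusted p = 0.087). 1 NC26 tumor library held only 3.47 M tags. Pre-cachexia mice share the PBS libraries, and their values stand beside these only as values: the regions called higher and lower in cachexia had median changes of 0.42 and -0.34 before cachexia. The Nxph4 region changed by 2.49, Prtn3 by 2.41 and Il1r1 by 1.80 before cachexia, and Hsd3b5 by 0.06 and Bhmt by 0.03.

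Marker genes of other liver cells were looked at in the same libraries. Neutrophil markers had 5 of 26 regions higher and 1 lower, with a summed value of 263 to 281 scaled tags in PBS and 377 to 410 in cachexia. Those called higher lay at Mpo, Elane and Csf3r, and 1 region at S100a8 was lower. Macrophage markers had 1 of 23 higher, with sums of 135 to 176 and 165 to 195, and Cd68, Vsig4, Cd5l and Lyz2 had no region. Endothelial markers had 10 of 95 regions higher and 6 lower, with sums of 1484 to 1634 in PBS and 1653 to 1934 in cachexia, which did not overlap. Stellate cell markers had 0 of 33 higher and 4 lower (sums 379 to 457 and 346 to 388), cholangiocyte markers 5 of 77 higher and 7 lower (1043 to 1124 and 1098 to 1131), and lymphocyte markers 0 of 33 in either direction (806 to 912 and 837 to 1133). The summed value of all regions within 100 kb was itself higher in cachexia, at 4.50 to 4.60 M against 4.33 to 4.43 M scaled tags. The Prtn3 promoter and the neutrophil sum were both higher in cachexia, but the sum includes Elane, which neighbours Prtn3. The part of other cells in the rise of the Prtn3 promoter was not tested.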

How the data were processed

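Accessibility was measured by ATAC-seq on about 25000 immunopurified hepatocyte nuclei per liver, amplified for 12 cycles. Reads were aligned to mm10 with BWA 0.7.5a-r405 and handled with SAMtools and HOMER, per the submitters' processing notes; their roles and order are not given. The deposited table gives a signal per merged region of 400 bases, which per the file headers is the tag count scaled to 10 M tags per library. Each read end counts 0.5 tag, and all values (100%) came out as whole read ends within 0.1. The coordinates and the nearest gene are the authors'.

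Values were scaled by TMM (edgeR 4.0.16) and filtered with filterByExpr (minimum 10 read ends, total 15), which removed 653 of 177904 regions. The log2(value + 1) was fitted with limma 3.58.1 (trend, robust) over all 35 libraries in 9 groups with the library series in the library names as covariate, with Benjamini-Hochberg adjustment over 177251 regions and a threshold of 0.05. Fold changes are on this log2(value + 1) scale and understate changes of low regions. Tag shares were compared with an exact permutation test. The scripts were tested on simulated data.

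Text names, per class, the 3 largest rises and 3 falls among called regions at or above the median average signal without overlap between groups, 5 genes each with the most called regions, 2 genes per list with the lowest adjusted p, and the 6 called promoters each with the highest signal. Members of the acute phase list and loci named earlier were left out of the choices by class and by number of regions, and other counted list genes were chosen after their values were seen. 1 region that the rule names is not reported here. Members and lists were chosen with earlier results of these data known. The deviations of same-numbered cachexia and PBS libraries from their group means correlated across regions at -0.063 to 0.036, so numbers were not treated as pairs. Alternatives were other scalings, filters, pseudocounts, sample sets, covariates, weights, DESeq2 1.42.0, edgeR on recovered reads and leaving out each library.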

Additional observations from a re-analysis of the deposited data

Results flagged for a closer look

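Each of the 86 named regions was looked at in both groups. In 11 cases the highest or lowest of the 4 libraries of a group stood far from the rest. Chance gives such a gap in about 1 group in 20, so several cases are expected by chance alone. In cachexia the cases were single libraries at Ndst1 (107 scaled tags), Gadd45g (46.5), Garem1 (39.6), Tmem232 (14.3), Il1r1 (242), Bhmt (57.4), St3gal1 (71.3) and Agxt (226). In PBS they were Gadd45g (33.7), Thrsp (124) and Btg2 (6.41). The share of tags in promoters had 1 such library as well, PBS replicate 3, at 33.5%. Each of these regions kept its direction without the library.

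The change differed between the C26 and the NC26 cohorts, by a test of the difference itself in limma, in 3787 regions, among them 52 of the 86 named regions. The named regions were chosen by their C26 change, which is part of this difference, so a high count among them is expected. Both cohorts are BALB/c with their own PBS groups. Cohort and tumor line cannot be told apart in this difference.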

How the results depend on the processing

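Called regions numbered 12255 higher and 12635 lower in the design used. With library totals as the only scaling 7763 were lower, with 835 promoters higher and 200 lower and a median log2 change of promoters of 0.12. With promoter share as a covariate 850 promoters were higher and the promoter median was 0.00037, and it was 0.028 with cyclic loess, where Dnpep turned to -0.0007 (adjusted p = 0.996). The share of higher among called regions ran from 47.6 to 55.9%. Leaving out 1 library in turn gave 9645 to 10883 regions higher, 9341 to 11689 lower, 1129 to 1665 promoters higher, 352 to 470 promoters lower and a promoter median of 0.048 to 0.085. The promoter share difference ran from 0.98 to 1.40 percentage points, and was 1.55 over all library tags (exact permutation p = 0.229). The cause of these moves was not tested.

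Over 23 settings, 73 of the 86 named regions were called in every one, and the exceptions were the 12 highest promoters and Gadd45g. The replicate number as a block, with the C26 libraries only, gave 15520 higher and 13456 lower regions, and Gadd45g lost its call (adjusted p = 0.0613) with its change at 2.59. Deviations of same-numbered libraries from their group means correlated at -0.063 to 0.036. By these deviations, no cachexia library correlated best with the PBS library of its own number. Leaving out the NC26 tumor library of 3.47 M tags, chosen after seeing the data, gave 13931 and 13440 regions, and 2118 and 573 promoters, higher and lower. Depth limits what can be said of regions with a few tags per library.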
